A study of Rattus norvegicus with 31 samples.

Results

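The 10 genes followed here belong to the endoplasmic reticulum (ER) stress and integrated stress responses, and were measured by RNA-Seq in the livers of 31 female Wistar rats. They are the genes encoding the transcription factors ATF4, CHOP (Ddit3) and XBP1, the ATF4 targets Trib3 and Asns, the ER folding machinery Hspa5, Dnajb9, Sdf2l1 and Pdia4, and the degradation factor Herpud1. They were chosen by name, with earlier results of these data known. Of these, 10 of 10 were found among the 26312 genes of the count table. They were found again among the 19904 genes tested, which had 2 or more counts in total and over which all p-values were adjusted. The rats (strain Crl:WI) were gavaged for 28 days, and each liver was a separate animal. The 8 controls received the vehicle, carboxymethyl-cellulose, which the treated rats received too. The neonicotinoid insecticide thiacloprid (THI) was given at 108 mg/kg bw/day to 4 rats. The imidazole fungicide imazalil (IMZ) was given at 93 mg/kg bw/day to 4 rats. The neonicotinoid clothianidin (CTD) was given at 288 mg/kg bw/day, and 3 rats were sequenced. The mixtures, of 4 rats each, were THI + IMZ at 54 and 46, THI + CTD at 54 and 134, and IMZ + CTD at 46 and 135 mg/kg bw/day. Single doses were chosen per compound, and the mixtures were set by relative potency. The rats were young adults, and the study recorded killing in moribund condition in the CTD high dose group, without stating the exact number.

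The liver secretes most plasma proteins, and its ER folds them. When unfolded proteins build up in the ER, the chaperone HSPA5 (BiP) leaves the sensors IRE1, PERK and ATF6. IRE1 splices the Xbp1 mRNA into a form that encodes an active factor, cleaved ATF6 enters the nucleus, and PERK phosphorylates the translation factor eIF2 alpha. The kinases GCN2, HRI and PKR phosphorylate the same factor when amino acids or heme are short or when double-stranded RNA is present. This shared branch, the integrated stress response, slows translation in general and raises that of ATF4, which turns on genes for amino acid supply and, together with CHOP, genes for signalling and cell death. The counts used here are summed per gene, so neither the splicing of Xbp1 nor the translation of Atf4 was measured.

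Known elements through which these factors act are printed first, since they are the DNA side of the branches described above. For each of the 10 genes, the 250 bases before the RefSeq gene start were searched on both strands for 4 elements. The ERSE, bound by ATF6 with NF-Y, was searched as CCAAT and CCACG separated by 9 bases. The ERSE-II was searched as ATTGG and CCACG separated by 1 base. The core of the element bound by XBP1 was searched as TGACGTG, and the core of the C/EBP-ATF element bound by ATF4 as TTGCATCA. Among 33469 RefSeq promoters of the same length, the ERSE was found in 0.0657%, the ERSE-II in 0.0418%, the TGACGTG core in 1.54% and the TTGCATCA core in 0.693%. Hspa5, Xbp1 and Herpud1 held matches and are shown because Hspa5 anchors the chaperones and Xbp1 and Herpud1 each passed a test, and Asns is shown because its level moved most. Capitals mark the matches, and each sequence runs 5′ to 3′ on the strand of the gene.
Hspa5 (GRCr8, chr3:38452766-38453015, + strand): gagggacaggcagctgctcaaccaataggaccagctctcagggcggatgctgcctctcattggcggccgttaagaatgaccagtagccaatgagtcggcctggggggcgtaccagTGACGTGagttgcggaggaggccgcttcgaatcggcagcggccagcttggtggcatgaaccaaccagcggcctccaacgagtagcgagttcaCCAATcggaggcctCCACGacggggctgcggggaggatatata
Xbp1 (GRCr8, chr14:84604373-84604622, + strand): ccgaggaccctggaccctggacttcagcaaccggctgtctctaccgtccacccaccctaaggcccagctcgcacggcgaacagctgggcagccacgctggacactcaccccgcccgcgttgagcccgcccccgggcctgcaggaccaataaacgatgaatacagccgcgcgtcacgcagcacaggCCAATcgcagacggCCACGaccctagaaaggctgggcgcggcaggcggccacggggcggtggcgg
Herpud1 (GRCr8, chr19:10614708-10614957, - strand): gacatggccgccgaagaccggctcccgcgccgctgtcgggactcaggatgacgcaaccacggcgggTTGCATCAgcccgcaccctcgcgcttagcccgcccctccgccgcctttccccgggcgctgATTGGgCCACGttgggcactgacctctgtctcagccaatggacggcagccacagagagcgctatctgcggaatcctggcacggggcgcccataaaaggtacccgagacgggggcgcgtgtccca
Asns (GRCr8, chr4:36769416-36769665, - strand): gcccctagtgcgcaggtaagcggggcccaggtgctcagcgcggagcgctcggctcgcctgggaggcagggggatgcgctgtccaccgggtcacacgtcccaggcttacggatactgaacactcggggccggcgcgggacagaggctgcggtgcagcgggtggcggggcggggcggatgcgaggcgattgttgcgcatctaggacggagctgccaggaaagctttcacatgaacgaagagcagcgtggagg
In Hspa5 the ERSE spanned bases 43 to 25 before the start, and the TGACGTG core bases 135 to 129. In Xbp1 the ERSE spanned bases 65 to 47. In Herpud1 the ERSE-II spanned bases 124 to 114, and the TTGCATCA core bases 184 to 177. For the remaining 7 genes these letters were not found in this window, which does not bear on whether the factors act on them.

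The depth of the libraries ran from 31.8 M to 101.2 M counts. Control libraries were deeper (median 60.5 M) than those of treated rats (median 40.2 M). Values are CPM, the counts of a gene relative to the TMM-scaled size of its library. Fold changes and adjusted p-values are from the quasi-likelihood test of edgeR with Benjamini-Hochberg adjustment, and a gene passed the test at an adjusted p under 0.05. The share of all genes that passed is given beside the first count of each comparison, as the background. The tissue label was checked on 8 hepatocyte markers, whose summed level was 140400 to 197500 CPM in controls and 122000 to 206100 CPM in the treated rats, with no marker at 0. In whole liver, a change in the number of cells of a type and a change in RNA per cell cannot be told apart.

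Most of the 10 genes showed no detectable change. In rats on CTD, Asns rose and Herpud1 fell, so that 2 of 10 passed the test, 1 in each direction. The background was 12.7% of all genes, with 6.62% higher and 6.03% lower. In THI + CTD, Asns alone passed, against a background of 4.39% (2.67% higher, 1.71% lower). In THI + IMZ, Xbp1 alone passed and was higher, against a background of 1.18% (0.849% higher, 0.332% lower). No member passed in THI, IMZ or IMZ + CTD by edgeR, where the backgrounds were 0.543%, 0.251% and 1.46%. At an unadjusted p under 0.05 these 3 counts were 0, 1 and 2, and the Wald test of DESeq2 also gave 0 in each. The median log2 fold change of the 10 genes was 0.15 in THI, -0.0028 in IMZ, -0.0088 in CTD, 0.20 in THI + IMZ, -0.036 in THI + CTD and -0.061 in IMZ + CTD. The medians over all genes in the same order were -0.014, -0.018, -0.067, -0.020, -0.034 and -0.029.

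**Figure D1:**
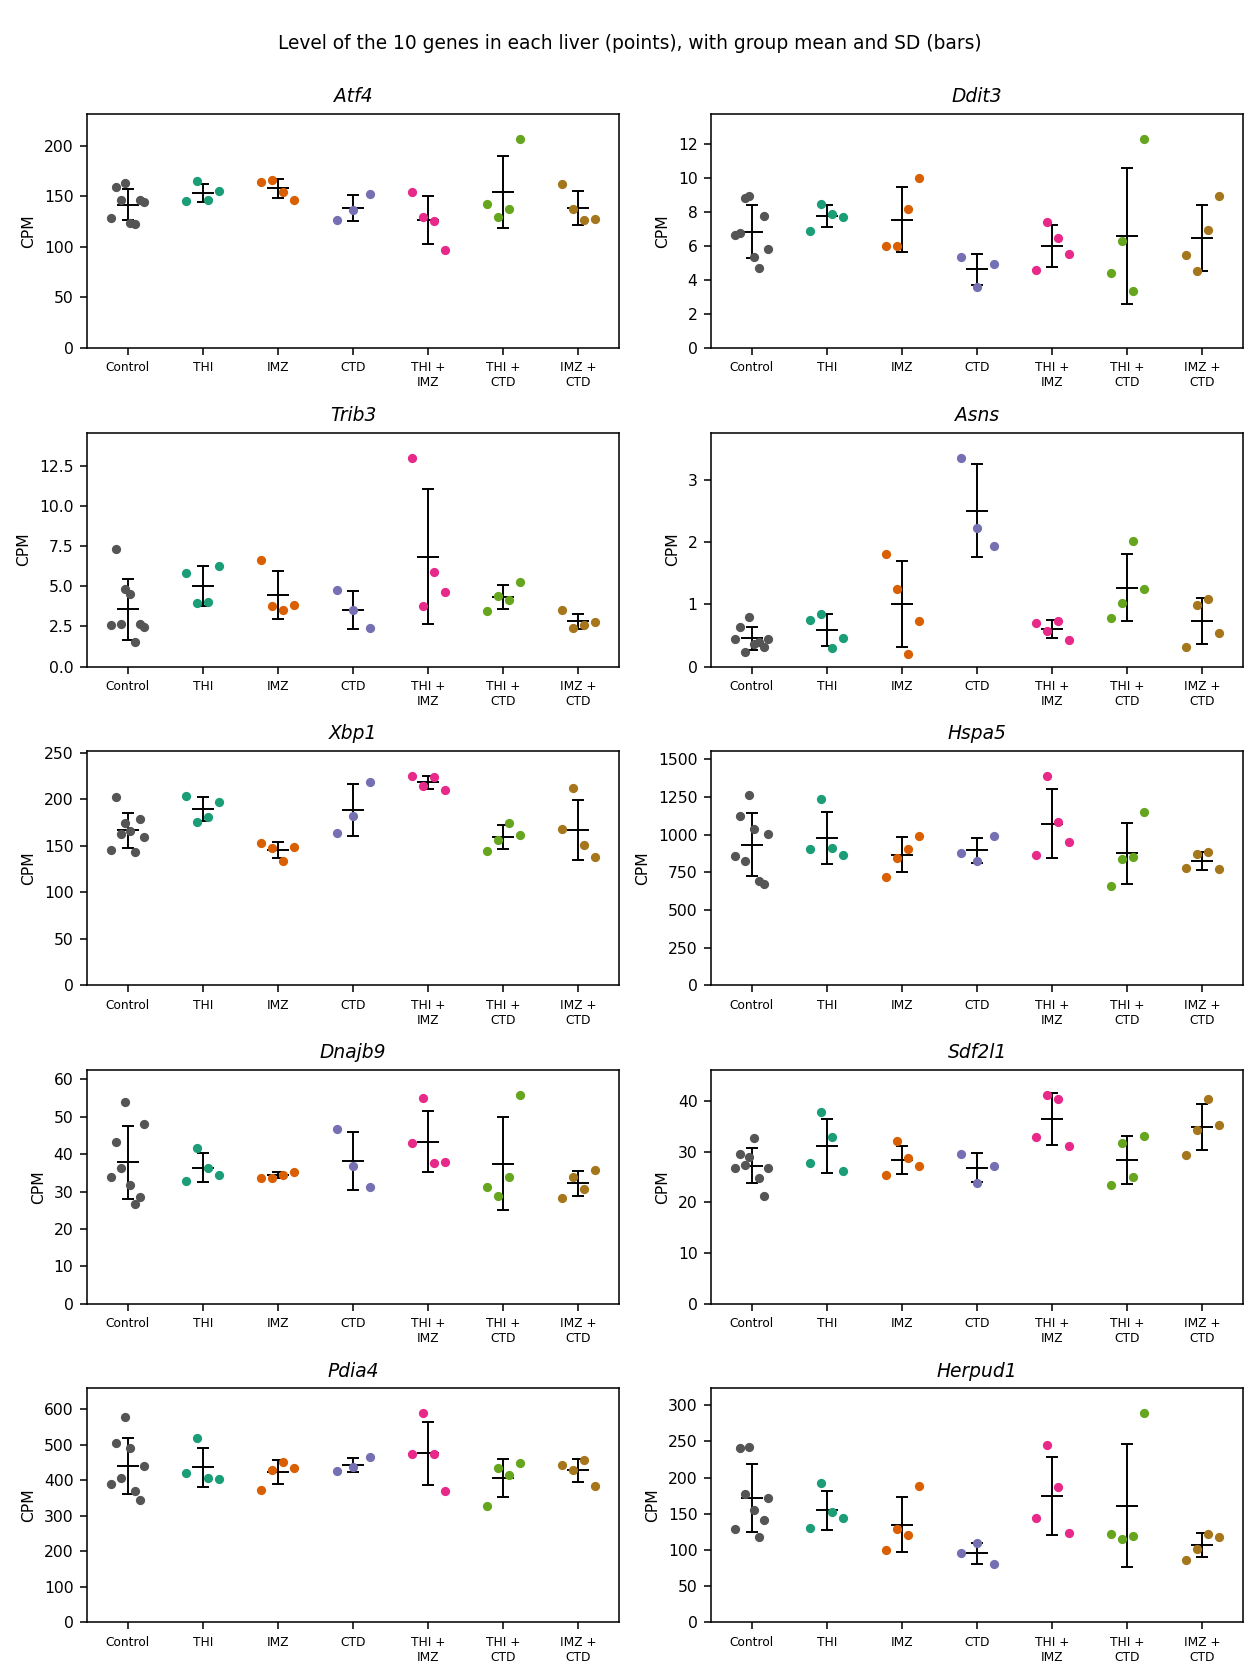
Level of each of the 10 genes in CPM (vertical axes, from 0) in the 7 groups, with 1 point per liver and bars for the group mean and SD. The 3 CTD livers lie above every control for Asns (1.94 to 3.36 against 0.234 to 0.801 CPM) and below every control for Herpud1 (80.1 to 110 against 117 to 243 CPM), while the 4 THI + IMZ livers lie above every control for Xbp1.

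Atf4 encodes the factor at the center of the integrated stress response. Its level was 122 to 163 CPM in the 8 controls, with a median of 145, and 127, 136 and 152 CPM in the 3 rats on CTD. The groups overlapped, and the log2 fold change in CTD was -0.033 ± 0.12 (SE), with a 95% interval of -0.28 to 0.22. Against control it lay between -0.16 and 0.16 in the 6 treatments. THI + CTD replicate 4 had the highest value of all 31 livers, at 206.5 CPM, where the rest of its group had 129 to 142 CPM.

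Ddit3 encodes CHOP, the factor that links prolonged stress to cell death. The controls had 4.70 to 8.94 CPM, with a median of 6.71. The CTD rats had 5.33, 3.59 and 4.95 CPM, in the lower part of the control range or below it, and the log2 fold change of -0.57 ± 0.27 did not pass the test (adjusted p = 0.19). THI + CTD replicate 4 again held the highest value, 12.3 CPM, where the rest of its group had 3.36 to 6.27 CPM.

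Xbp1 encodes the target of IRE1. The controls had 143 to 202 CPM, with a median of 164. The THI + IMZ rats had 225, 215, 224 and 210 CPM, so all 4 lay above the highest control. The log2 fold change was 0.39 ± 0.09, a 1.31-fold higher level, with an adjusted p of 0.028. With an SD of 7.03 CPM this was the tightest of the 7 groups for Xbp1. The adjusted p was 0.056 without control replicate 1 and 0.051 to 0.079 without each rat of THI + IMZ in turn, so the call depended on each of these 5 libraries. The rats on THI had 204, 176, 181 and 197 CPM and those on IMZ 154, 147, 134 and 149 CPM. The THI and IMZ groups did not overlap with each other, but neither passed the test against control (adjusted p = 0.59 and 0.63). The difference of THI from IMZ, 0.38 ± 0.11, did not pass either (adjusted p = 0.62).

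Trib3 encodes a pseudokinase induced by ATF4 and CHOP, and it varied more than any other member among the controls, with a coefficient of variation of 52.9%. The controls had 1.53 to 7.33 CPM, with a median of 2.63. The THI + IMZ rats had 13, 3.76, 5.91 and 4.67 CPM. Replicate 1 of that group had the highest level of the 31 livers. Its log2 fold change of 0.96 ± 0.30 did not pass the test (adjusted p = 0.13). It was 0.44 without that rat (adjusted p = 0.70), and it passed without control replicate 2, the control with the highest level (1.18, adjusted p = 0.023). In CTD, where Asns rose, the Trib3 levels were 4.73, 3.52 and 2.37 CPM and the log2 fold change was 0.0093 ± 0.35.

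Asns encodes asparagine synthetase, a classical target of ATF4. It had the largest log2 fold change of the 10 genes in IMZ, CTD, THI + CTD and IMZ + CTD. It passed the test against control in CTD and THI + CTD only. The controls had 0.234 to 0.801 CPM, with a median of 0.414. The CTD rats had 3.36, 2.22 and 1.94 CPM. All 3 lay above every control. The log2 fold change was 2.47 ± 0.39, a 5.55-fold higher level with a 95% interval of 3.18 to 9.67, and the adjusted p was 5.2e-05.

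In the mixtures with CTD, which held a lower CTD dose, 7 of 8 livers had less Asns than the lowest CTD liver. The THI + CTD rats had 0.771, 1.03, 2.02 and 1.24 CPM, of which 3 lay above every control. The log2 fold change was 1.49 ± 0.38, with an adjusted p of 0.017. Without replicate 3 it was 1.16, with an adjusted p of 0.15. The IMZ + CTD rats had 0.308, 0.994, 1.09 and 0.546 CPM and the groups overlapped (0.71 ± 0.40, adjusted p = 0.49). The IMZ rats had the highest coefficient of variation for Asns of the 7 groups (69.4%), at 1.81, 1.25, 0.196 and 0.735 CPM, with 2 livers above the control range and 1 below it (1.16 ± 0.38, adjusted p = 0.30). The THI rats had 0.754, 0.845, 0.303 and 0.452 CPM and the THI + IMZ rats 0.703, 0.564, 0.726 and 0.422 CPM, and of these 8 livers 1 lay above the control range. Asns was the member with the fewest reads. Its counts were 10 to 52 per control liver, 63 to 129 per CTD liver and 8 to 129 over the 31 livers, so counting error weighs more on it than on the chaperones.

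**Figure D2:**
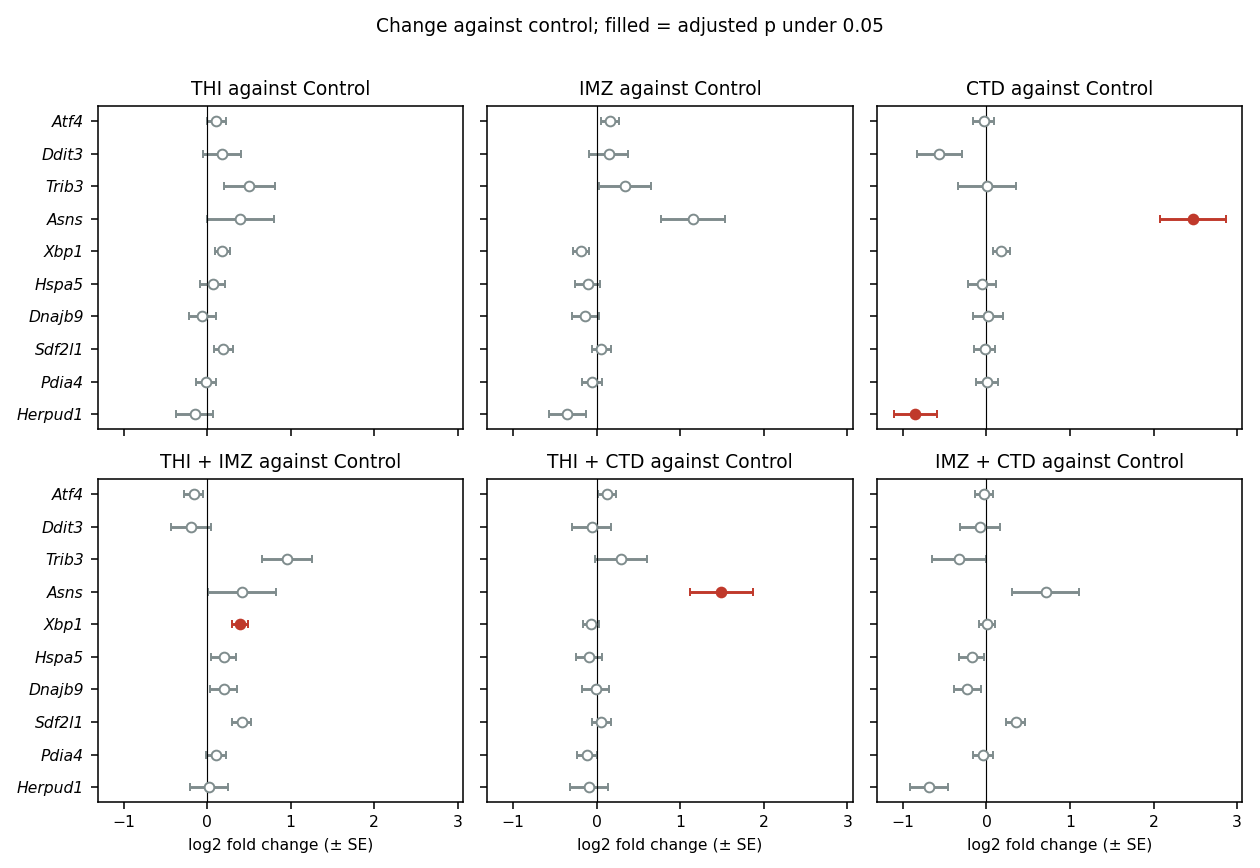
Log2 fold change against control (horizontal axes) of the 10 genes in the 6 treatments, with bars of 1 SE and filled points at an adjusted p under 0.05. Filled points are Asns (2.47) and Herpud1 (-0.85) in CTD, Xbp1 (0.39) in THI + IMZ and Asns (1.49) in THI + CTD.

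In CTD, the livers lay within the control range for each of the 4 ER folding genes. Hspa5 encodes BiP, the main chaperone of the ER lumen and the brake on its stress sensors. The controls had 669 to 1263 CPM, with a median of 929, and the CTD rats 877, 827 and 989 CPM. The CTD values sat in the middle of the control range, with a log2 fold change of -0.057 ± 0.17 and a 95% interval of -0.40 to 0.29, or 0.758 to 1.22 times the control level. In the other 5 treatments its log2 fold change ran from -0.18 to 0.20.

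Pdia4, a disulfide isomerase of the ER, had 346 to 579 CPM in controls and 426, 438 and 465 CPM in CTD, a log2 fold change of 0.0060 ± 0.13. Dnajb9, a co-chaperone of BiP that also restrains IRE1, had 26.7 to 53.9 CPM in controls and 46.7, 36.8 and 31.4 CPM in CTD, a change of 0.019 ± 0.18. Over the 6 treatments the log2 fold changes of Pdia4 ran from -0.12 to 0.11 and those of Dnajb9 from -0.23 to 0.20, and neither passed a test.

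Sdf2l1 encodes a partner of the BiP co-chaperones that keeps unfolded proteins soluble. The controls had 21.2 to 32.7 CPM, with a median of 27.1, while the THI + IMZ rats had 33.0, 41.2, 40.4 and 31.1 CPM. Of those 4, 3 lay above every control. A log2 fold change of 0.42 ± 0.11 did not pass the test by edgeR (adjusted p = 0.064). It passed in 2 of 18 alternative fits, by DESeq2 (adjusted p = 0.023) and by edgeR without control replicate 5 (adjusted p = 0.037). That liver had the highest level of the controls. Without THI + IMZ replicate 2 or 3 the adjusted p by edgeR was 0.26 or 0.215. The IMZ + CTD rats had 29.3, 34.4, 40.4 and 35.3 CPM (0.35 ± 0.11, adjusted p = 0.13), and the CTD rats 29.5, 23.8 and 27.2 CPM (-0.024 ± 0.13).

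Herpud1 encodes a membrane protein that assembles the machinery of ER-associated degradation (ERAD), and it was the 1 member called lower in the 6 comparisons with control. The controls had 117 to 243 CPM, with a median of 164. The CTD rats had 95.7, 110 and 80.1 CPM, all below the lowest control. The log2 fold change was -0.85 ± 0.26, a level of 0.554 times that of control with a 95% interval of 0.384 to 0.798, and the adjusted p was 0.026. Without CTD replicate 1 or 3, the adjusted p was 0.091 or 0.12 at log2 fold changes of -0.86 and -0.74. The IMZ + CTD rats had 86.3, 101, 122 and 118 CPM, of which 2 lay below every control (-0.68 ± 0.23, adjusted p = 0.15). The THI + CTD rats split, with 122, 115 and 120 CPM in 3 livers and 288 CPM in replicate 4, the highest of all 31. In that group the log2 fold change was -0.093 ± 0.22 and, without replicate 4, -0.54, with an adjusted p of 0.18.

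Differences between compounds were tested at doses that differ in mg. Asns was higher in CTD than in THI by a log2 difference of 2.07 ± 0.48 (adjusted p = 0.0063, 1 of 10 members against a background of 6.62%). Without CTD replicate 1 that difference was 1.81, with an adjusted p of 0.056. CTD and IMZ did not differ in any member by edgeR, against a background of 4.67%, although 3 members had an unadjusted p under 0.05. Of these, Asns differed by 1.32 ± 0.46 (adjusted p = 0.10, 95% interval 0.37 to 2.26). The difference passed in 1 of 13 alternative fits, that without IMZ replicate 1 (adjusted p = 0.042), the IMZ liver with the most Asns. Without CTD replicate 1 the adjusted p was 0.32. Xbp1 differed by 0.37 ± 0.12 (adjusted p = 0.067), a difference that passed by DESeq2 (adjusted p = 0.029). THI and IMZ did not differ in any member by edgeR or DESeq2, with 1 unadjusted p under 0.05 and a background of 0.01% of all genes. The intervals of these differences remained wide for the low genes, as for Asns in THI against IMZ, at -1.69 to 0.17.

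Each mixture was compared with a dose-weighted sum of its compounds, with a weight of 0.5 on the log2 fold changes of either THI or IMZ and of 0.47 on that of CTD. The weights were close to the ratio of the dose in the mixture to that given alone. No member differed from that sum by edgeR in any of the 3 mixtures, where the background was 0.0151% in THI + IMZ, 0.286% in THI + CTD and 1.16% in IMZ + CTD. The numbers at an unadjusted p under 0.05 were 3, 1 and 2. DESeq2 gave 1, 0 and 0. That 1 was Xbp1 in THI + IMZ, which lay 0.40 ± 0.09 above the sum (adjusted p = 0.12 by edgeR and 0.017 by DESeq2). Asns lay 0.13 ± 0.38 from the sum in THI + CTD and 1.03 ± 0.41 below it in IMZ + CTD on the log2 scale, with a 95% interval of -1.87 to -0.19 and an adjusted p of 0.23. Sdf2l1 lay 0.34 ± 0.12 above it in IMZ + CTD (adjusted p = 0.16).

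The wider pathway was read from 10 lists of 116 genes, of which 114 were tested. In CTD 26 of these passed the test (22.8%, against 12.7% of all genes), 15 higher and 11 lower, with a median log2 fold change of 0.039. In THI + CTD 5 passed (4.39%, equal to the background), and in IMZ + CTD 2 passed (1.75%). In THI, IMZ and THI + IMZ none passed by edgeR. The numbers at an unadjusted p under 0.05 were 6, 11 and 22, and DESeq2 called 1, 1 and 2. Without CTD replicate 1 the count in CTD was 16. The count in THI + CTD was 1 without its replicate 2 or 3 and 3 without control replicate 6 or 8. The shares of the 10 lists in CTD ran from 11.1% to 38.5%. Those of the sensors and kinases (11.1%), the ERAD genes (14.3%), the tRNA synthetases (16.7%) and the signalling and death targets (18.2%) were nearest to the background of 12.7%. The lists include many well-counted genes while the background includes sparse ones, so the shares are not matched for depth. The lists were also chosen with earlier results of these data known. Their shares beside the background are therefore a description and no test of the pathway.

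Around Asns, the genes of amino acid supply divided. Of 14 tested ATF4 targets of this group, 4 rose and 1 fell in CTD (35.7% passed, against 12.7% of all genes). Psat1, the aminotransferase of serine synthesis, had 1.22 to 2.16 CPM in controls and 5.38, 3.64 and 2.92 CPM in CTD, all above every control (1.22 ± 0.28, adjusted p = 0.0035). Mthfd2, a mitochondrial folate enzyme, had 0.244 to 0.679 CPM in controls and 2.19, 1.09 and 1.02 CPM in CTD (1.77 ± 0.39, adjusted p = 0.0020). These low genes lay apart from control in all 3 CTD rats, as Asns did. Both are named because they passed, so the separation adds no support beyond the test.

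Psph, the phosphatase that ends serine synthesis, had 2.64 to 5.73 CPM in controls and 5.85, 8.79 and 5.81 CPM in CTD (0.65 ± 0.19, adjusted p = 0.021). Slc7a11, the cystine transporter, passed with a log2 fold change of 2.63 ± 0.80 (adjusted p = 0.027), yet its counts in the CTD rats were 20, 53 and 0, so that 1 of the 3 showed none. Gpt2, a mitochondrial alanine aminotransferase, fell by 0.48 on the log2 scale (adjusted p = 0.026). In THI + CTD, Psat1 alone of this list passed by edgeR, at 1.76, 5.58, 4.64 and 3.06 CPM (1.14 ± 0.26, adjusted p = 0.0081). By DESeq2 alone, Gpt2 was lower there too (adjusted p = 0.019, against 0.055 by edgeR). Slc7a5 was lower in THI by DESeq2 alone (adjusted p = 0.016, against 0.073 by edgeR). Psat1 was higher by DESeq2 alone in IMZ and IMZ + CTD (adjusted p = 0.0499 and 0.033). By edgeR its log2 fold changes there were 0.94 ± 0.26 and 0.89 ± 0.27 (adjusted p = 0.15 and 0.091).

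**Figure D3:**
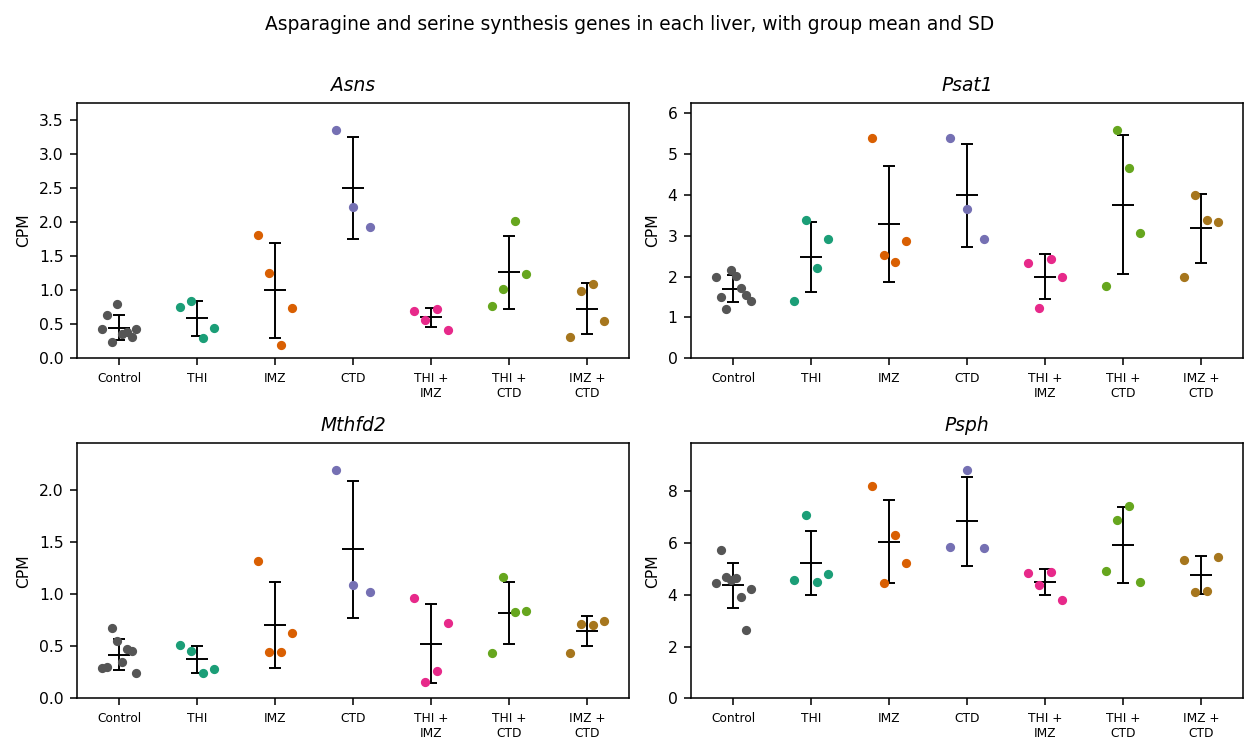
Levels in CPM of Asns and of the serine and folate genes Psat1, Mthfd2 and Psph in the 7 groups, with 1 point per liver and bars for mean and SD. The 3 CTD livers lie above every control in each panel, and IMZ replicate 1 is the highest of its group in all 4 (1.81, 5.38, 1.31 and 8.18 CPM). All 4 genes passed the test in CTD, so their separation there is a description and no further test.

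Of other targets of ATF4 and CHOP, those of signalling and death, 2 of 11 tested passed by edgeR in CTD, and both were lower. A count of 2 of 11 is near the 12.7% of all genes that passed there. Gdf15, a secreted stress signal, had 19.2 to 52.8 CPM in controls and 8.51, 7.73 and 7.32 CPM in CTD (-1.83 ± 0.53, adjusted p = 0.018). Sesn2, a leucine sensor that restrains mTORC1, had 22.2 to 72.3 CPM in controls and 15.4, 15.0 and 15.1 CPM in CTD (-1.17 ± 0.29, adjusted p = 0.0053). Both lay below every control. By DESeq2, 2 further targets passed and were higher, Stc2, a secreted glycoprotein, and Ddit4, an inhibitor of mTORC1 (adjusted p = 0.044 and 0.0498). By edgeR their log2 fold changes were 1.72 ± 0.64 and 0.82 ± 0.30 (adjusted p = 0.075 and 0.076). Of 12 tRNA synthetases 2 passed in CTD, also near that share. Gars rose by 0.35 ± 0.09 and Yars fell by 0.43 on the log2 scale (adjusted p = 0.0064 and 0.031). Gars alone rose in THI + CTD too (0.27 ± 0.08, adjusted p = 0.037), where 4.39% of all genes passed.

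On the eIF2 alpha axis, 2 of 9 genes passed in CTD (22.2%, against 12.7% of all genes). Ppp1r15a, the inducible subunit (GADD34) of the phosphatase that reverses the eIF2 alpha mark, had 12.8 to 24.8 CPM in controls and 9.65, 7.18 and 8.77 CPM in CTD (-1.11 ± 0.26, adjusted p = 0.0041). Eif2s1, which encodes eIF2 alpha itself, had 22.1 to 30.3 CPM in controls and 42.6, 34.0 and 37.7 CPM in CTD (0.50 ± 0.09, adjusted p = 0.00023). The lower gene and the higher gene were both outside the control range in all 3 CTD rats. They are named because they passed the test, so this separation is a description and no further test.

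Among 9 sensors and kinases, Ern1, the gene of IRE1, was lower in CTD, at 20.4, 24.6 and 27.4 CPM against 29.9 to 38.9 CPM in controls (-0.48 ± 0.09, adjusted p = 0.00053). In THI + CTD, Mbtps2, a protease that cleaves ATF6, was higher (0.52 ± 0.15, adjusted p = 0.046). Among 8 further transcription factors, Creb3l2, an ER-resident relative of ATF6, was lower in CTD (-0.63 ± 0.15) and in THI + CTD (-0.54 ± 0.13), with adjusted p-values of 0.0045 and 0.016. Cebpg, a partner of ATF4 on DNA, was higher in CTD (0.27 ± 0.08, adjusted p = 0.029), and Crebrf, a regulator of CREB3 proteins, lower in THI + CTD (-0.52 ± 0.10, adjusted p = 0.0027). Nupr1 was lower in CTD and in THI + CTD by DESeq2 alone (adjusted p = 0.036 and 0.0285, against 0.083 and 0.088 by edgeR).

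Of 13 translocation genes, which pass new proteins into the ER, 5 rose in CTD (38.5%, against 6.62% of all genes higher), none was called lower and 8 did not pass. Those that rose were the translocon subunits Ssr3 (0.62 ± 0.09), Ssr1 (0.59 ± 0.10) and Sec63 (0.32 ± 0.07) and the signal peptidase subunits Spcs3 (0.48 ± 0.10) and Spcs2 (0.29 ± 0.09), with adjusted p-values of 2.4e-05, 0.00011, 0.0013, 0.0018 and 0.030. Ssr3 had 103 to 135 CPM in controls and 210, 170 and 188 CPM in CTD. It also rose in IMZ + CTD, at 130, 175, 169 and 157 CPM (0.36 ± 0.09, adjusted p = 0.023). Ssr2 was higher in CTD by DESeq2 alone (adjusted p = 0.044, against 0.075 by edgeR).

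Folding and degradation genes were called in both directions, at 21.4% of the chaperones and 20% of the disulfide isomerases and oxidases in CTD. Of 14 chaperones, Canx, a lectin chaperone, was higher in CTD (0.40 ± 0.09, adjusted p = 0.0018), while Hsp90b1 (GRP94) and the prolyl isomerase Fkbp2 were lower (-0.48 ± 0.16 and -0.51 ± 0.10, adjusted p = 0.040 and 0.00072). Of 10 disulfide isomerases and oxidases, Erp44 was higher (0.26 ± 0.08, adjusted p = 0.041) and Txndc11 lower (-0.60 ± 0.17, adjusted p = 0.018), and the oxidase Ero1l was lower in IMZ + CTD (-0.43 ± 0.10, adjusted p = 0.020). By DESeq2 alone, Ero1l was higher in CTD, as were the chaperones Serp1 and Uggt1 (adjusted p = 0.044, 0.036 and 0.045). By edgeR their log2 fold changes in CTD were 0.30 ± 0.11, 0.33 ± 0.12 and 0.30 ± 0.11 (adjusted p = 0.067, 0.055 and 0.072). Of 14 ERAD genes beside Herpud1, Derl2 was higher (0.30 ± 0.08, adjusted p = 0.0085) and the lectin Os9 lower (-0.31 ± 0.08, adjusted p = 0.012) in CTD.

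**Figure D4:**
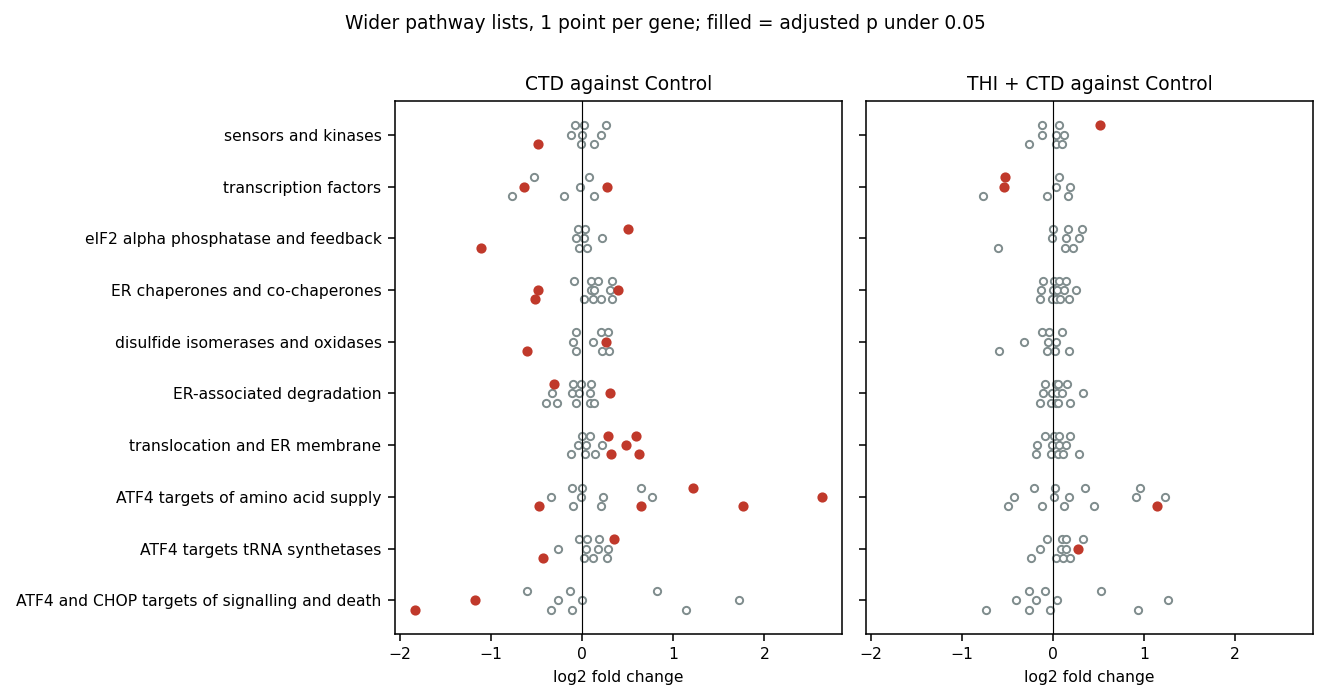
Log2 fold change (horizontal axes) of each tested gene of the 10 wider lists in CTD and in THI + CTD against control, with filled points at an adjusted p under 0.05. In CTD the filled points of the translocation list all lie above 0, those of the signalling and death list both lie below 0, and the amino acid list holds the highest point, Slc7a11 at 2.63.

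Within groups, the chaperones varied together from liver to liver. After each value was taken as a deviation from its group mean in log2 CPM, Hspa5 and Pdia4 had a Pearson r of 0.88 over the 31 livers (Spearman rho 0.88, and r 0.87 without the 2 livers farthest from the Hspa5 median). Hspa5 and Herpud1 had an r of 0.77 (rho 0.66, r 0.70 without the 2 livers), and Hspa5 and Sdf2l1 had an r of 0.73 (rho 0.72, r 0.72). Hspa5 and Dnajb9 had an r of 0.71 (rho 0.55, r 0.59). These values are descriptions without a test, and the points of a pair share their library and its scaling.

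Xbp1 and Atf4 followed Hspa5 less closely, with an r of 0.24 and 0.34, and Asns and Ddit3 had an r of -0.16. Over the 45 pairs the median r was 0.34, and 13 pairs exceeded 0.5. THI + CTD replicate 4 lay high for Hspa5 (1147 CPM), Herpud1, Dnajb9 (55.9 CPM), Atf4 and Ddit3. Without it, r for Herpud1 and Dnajb9 was 0.73 against 0.79 with it, and r for Atf4 and Herpud1 0.34 against 0.50.

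**Figure D5:**
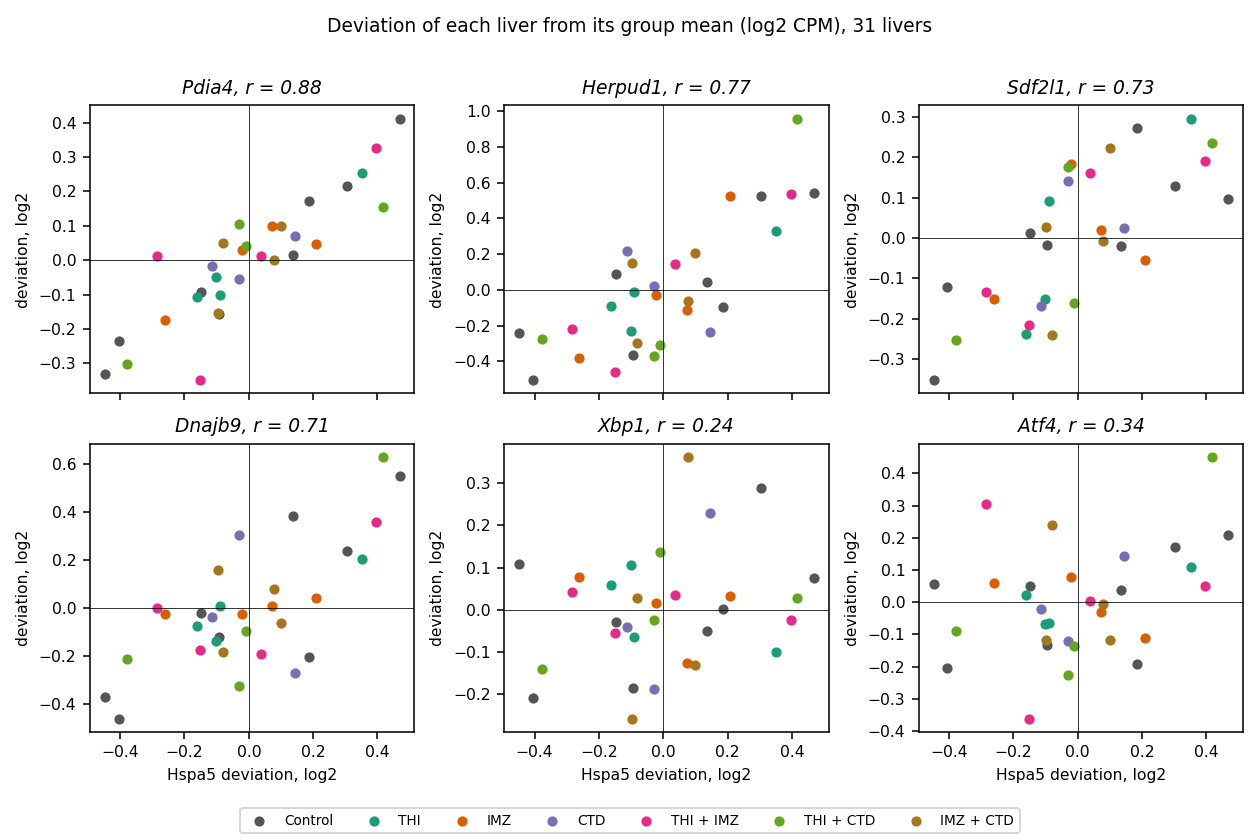
Deviation of 6 members from their group mean (vertical axes, log2 CPM) against that of Hspa5 (horizontal axes) in 31 livers, colored by group. Pdia4, Herpud1, Sdf2l1 and Dnajb9 increase along with Hspa5 (r of 0.71 to 0.88), and Xbp1 and Atf4 scatter more (0.24 and 0.34).

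The genes most like Hspa5 over the 31 livers, out of 10876 genes with a symbol and an average log2 CPM above 0, were MANF, Creld2, Hyou1, Pdia4 and Alg12, with an r of 0.92, 0.90, 0.89, 0.87 and 0.80. Their r on deviations from group means was 0.95, 0.93, 0.96, 0.88 and 0.82. MANF and CRELD2 are ER proteins that are secreted under stress, HYOU1 is the exchange factor of BiP and ALG12 builds N-glycans. The genes most like Asns were Arf6, Mapre1, Gnaq, Rcc2 and Myef2, with an r of 0.80 to 0.75 that dropped to 0.43, 0.51, 0.58, 0.63 and 0.36 on the deviations.

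Genes of cell division and some genes of other cell types were called in the same comparisons. The share of all genes that passed was 12.7% in CTD (6.62% higher, 6.03% lower). It was 4.39% in THI + CTD, 1.46% in IMZ + CTD and 1.18% in THI + IMZ. In CTD, 10 of 10 cell division genes rose, and their summed level was 46.7 to 164 CPM against 7.61 to 18.6 CPM in controls. In the mixtures, 9 of 10 rose in THI + CTD (19.8 to 56.2 CPM), 9 in IMZ + CTD (28.0 to 77.9 CPM) and 6 in THI + IMZ (16 to 84.4 CPM). Of 4 tested red blood cell markers, Hbb, Hba1 and Alas2 rose and Slc4a1 fell in CTD, where the summed level was 124 to 150 CPM against 22.2 to 52.2 CPM in controls, and none was at 0.

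Of 8 Kupffer cell markers, 3 fell in CTD, with sums of 349 to 550 CPM against 431 to 718 CPM. The hepatocyte markers Ass1 and Tat (2 of 8), the pancreas marker Cpa1 (1 of 8) and 1 of 8 sinusoidal endothelial markers fell too, and of 7 stellate cell and fibroblast markers 1 rose and 1 fell. A count of 1 of 8 is near the 12.7% of all genes that passed in CTD. None of 8 T and NK and 7 B and plasma cell markers passed by edgeR (3 and 0 at an unadjusted p under 0.05, 1 and 0 by DESeq2). Pancreas sums were 11.7 to 129 CPM in CTD against 189 to 465 CPM in controls. They are in effect the level of Cpa1, which held 220382 counts over the 31 livers where Cpb1, the next, held 843. Of the other pancreas markers, Prss1, Ctrb1, Cela2a, Amy2a3 and Pnlip were at 0 in CTD and Prss1 and Pnlip in controls. Of 9 fasting and feeding genes, Igfbp1, itself an ATF4 target, fell (-2.77 ± 0.73, adjusted p = 0.0094).

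In THI + CTD, where Asns was called too, 3 of 8 Kupffer cell markers fell (C1qa, C1qb and Cd163), with sums of 362 to 500 CPM. Of all genes, 2.67% were called higher in this comparison and 1.71% lower. Serpina1 and Tat of 8 hepatocyte markers fell as well, as did Cpa1 of 8 pancreas markers and Cd4 of 8 T and NK cell markers. Kdr of 8 sinusoidal endothelial markers and Reln of 7 stellate cell and fibroblast markers also fell, while Col1a1 of those 7 rose. Hbb of 4 red blood cell markers and Cpt1a of 9 fasting and feeding genes rose. Igfbp1 fell (-3.34 ± 0.66, adjusted p = 0.0025). In THI + IMZ, where Xbp1 was called, Apoa1 alone of 8 hepatocyte markers passed and was higher (0.85 ± 0.18, adjusted p = 0.012). Rgs5 alone of 7 stellate cell and fibroblast markers passed and was higher (0.92 ± 0.16, adjusted p = 0.0023). The summed levels overlapped with control, at 128500 to 206100 against 140400 to 197500 CPM for the hepatocyte list. For the stellate cell list they were 311 to 415 against 256 to 437 CPM. Rgs5 was called higher in IMZ too (0.76 ± 0.16, adjusted p = 0.034), where Xbp1 was not called (-0.19 ± 0.10). The part of these shifts in the changes of Asns, Herpud1 and Xbp1 was not tested.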

How the data were processed

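Liver RNA of 31 rats was sequenced as stranded total RNA. The authors trimmed adapters with Skewer, checked reads with FastQC 0.11.5 and mapped and counted them per gene with STAR 2.5.2b on Rnor_5.0. The annotation release and the strand setting of the counting are not given in the sources used here. The deposited count table holds whole-number read counts, not normalized. A further deposited table is a signal, namely those counts divided by the DESeq2 1.15.1 size factor of each library, for genes with 2 or more counts in total. It was checked against the counts (largest relative deviation 5.3e-15) and not tested. The authors worked with DESeq2.

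The counts were tested with edgeR 4.0.16 under R 4.3.3 (keeping genes with 2 or more counts in total, TMM, a mean for each of 7 groups, quasi-likelihood test, Benjamini-Hochberg over 19904 genes, threshold 0.05). The SE is the log2 fold change over the square root of F, and 95% intervals use the degrees of freedom of the fit. DESeq2 1.42.0 was an alternative, beside its size factors, other filters, a replicate block, fits of only the groups compared, exact dose ratios and each rat left out in turn. The pipeline was tested on simulated data. Tables and plots used Python 3.11.15 with pandas, scipy and matplotlib.

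The 10 genes were those given by name, matched to the symbols of the count table regardless of case (MANF, DDIT3 and XBP1 are upper case there). A symbol on several rows was read from the row with the highest mean count. From the wider lists, genes past the threshold against control were named, at most 6 per list and comparison by smallest p, and the 5 genes with the highest r to Hspa5 and Asns in log2 CPM (prior count 2). Genes of marker lists and those that passed by DESeq2 alone were named beside their counts after their values were seen. The members and lists were chosen with earlier results of these data known. Promoters are from RefSeq (GRCr8), 10 of 10 members matched. Positions on Rnor_5.0 are not given here, as no annotation of that build was used. The 31 libraries are separate animals.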

Additional observations from a re-analysis of the deposited data

Results flagged for a closer look

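Of 60 combinations of a member and a group of 4 to 8 livers, 4 held a liver far from the others by the criterion of Dixon (gap over range of log2 CPM above 0.829 for 4 livers), where chance gives about 1 in 20. THI replicate 2 stood apart for Hspa5 (gap over range 0.86, 1235 CPM against 865 to 909 CPM in the rest of the group) and for Pdia4 (0.84, 519 CPM against 404 to 421 CPM). THI + CTD replicate 4 stood apart for Herpud1 (0.928, 288 CPM against 115 to 122 CPM). IMZ replicate 1 stood apart for Trib3 (0.866, 6.64 CPM against 3.53 to 3.85 CPM). The effect of CTD and that of THI differed for Asns by 2.07 on the log2 scale by the test of the difference (edgeR, adjusted p = 0.0063).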

How the results depend on the processing

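With each rat left out in turn, the number of members past the threshold ran from 1 to 2 in CTD, 0 to 2 in THI + IMZ, 0 to 1 in THI + CTD, 0 to 1 in CTD against THI and 0 to 1 in CTD against IMZ. The number of pathway genes ran from 16 to 30 in CTD and 1 to 6 in THI + CTD. The Wald test of DESeq2 gave 2 members in THI + IMZ, 1 in CTD against IMZ, 1 off the sum in THI + IMZ, and 10 pathway genes in THI + CTD. Filtering with filterByExpr gave 1 in CTD against IMZ, and fitting only the groups compared gave 3 in CTD against THI. Asns in CTD passed in 17 of 17 alternatives, Herpud1 in CTD in 15 of 17, Xbp1 in THI + IMZ in 12 of 18, Asns in THI + CTD in 16 of 18 and Asns in CTD against THI in 12 of 13, with no change of sign. Of the 115 other values, 7 passed in some alternative and 45 changed sign in some alternative without passing. The causes were not tested.

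The replicate numbers were taken as names and not as pairs of rats. Of 78 same-numbered pairs, 19 had a correlation of deviations above 0.1 (-0.27 to 0.44). Without differently numbered pairs beside them, these values cannot show whether the numbers pair the rats. The pairs of THI with THI + IMZ were above 0.1 in 4 of 4 (0.10 to 0.40), groups that were set side by side only in the dose-weighted sum. With the replicate block, no member passed in THI + IMZ or THI + CTD (0 and 0), with adjusted p-values of 0.29 for Xbp1 and 0.21 for Asns, and 15 pathway genes passed in CTD and 2 in THI + CTD. Replicates 5 to 8 exist in the control group alone, so the block gives each of those livers its own term. Comparisons with control then rest on control replicates 1 to 4, and the lost calls cannot be assigned to pairing. Replicates of a group were not the same library, since the smallest mean chi-square per gene of a pair was 38.2. Precision at this depth was lowest for Asns, the member with the fewest reads (8 to 129 per liver).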
